A study of Mus musculus with 18 samples.

Results

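The genes described here are the 9 that encode the catalytic ATPases and core SMARC subunits of BAF, the mammalian SWI/SNF remodeller of chromatin: Smarca2, Smarca4, Smarcb1, Smarcc1, Smarcc2, Smarcd1, Smarcd2, Smarcd3 and Smarce1. Their rows were taken by gene symbol, and the members were chosen with earlier results of these data known. Each gene matched 1 of the 55385 gene rows of the RNA tables. Hippocampus of C57BL/6 mice was profiled, either wild type (WT) or with a conditional knockout (cKO) of Arid1a, the gene of a DNA-binding BAF subunit that is no member of this set. PolyA RNA was sequenced from 2 WT and 2 cKO hippocampus samples at postnatal day 21 (P21) and from 3 WT and 3 cKO samples at embryonic day 16.5 (E16.5). Chromatin immunoprecipitation sequencing (ChIP-seq) was done on hippocampus at 3 weeks of age, with 1 library per genotype for H3K4me3, H3K27ac, H3K27me3 and input. The labels name neither the Cre driver nor the cells in which Arid1a was deleted, and they do not say whether animals were pooled. The RNA samples were biological replicates per the series design, and the labels do not tie a sample to an animal, so p-values measure the spread between these samples.

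BAF complexes use the energy of ATP to slide or evict nucleosomes and thereby open promoters and enhancers. Each canonical complex carries 1 of the 2 interchangeable ATPases, BRM (Smarca2) or BRG1 (Smarca4). The ATPase sits on a core of a pair of SMARCC scaffold proteins, a SMARCD protein, SMARCB1 and SMARCE1. The paralogous subunits are exchanged as neural progenitors become neurons, and BRG1-containing complexes with neuron-type subunits are known from postmitotic neurons. ARID1A joins the core through the SMARCD and SMARCC proteins and marks the canonical form of the complex.

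Totals of estimated counts per library ran between 20089631 and 20332148 for P21 and between 17662335 and 19760764 for E16.5. Arid1a itself had 4291 and 4089 counts in the WT libraries and 2281 and 1778 in the cKO libraries at P21, and 4983, 5489 and 5560 against 3210, 3100 and 3527 at E16.5, so its groups did not overlap at either age. The 6 hippocampal neuron markers summed to between 1215 and 2017 CPM (counts scaled to the adjusted library size) in every library, and none was at 0. At P21, 3 of these 6 differed in cKO with edgeR: Prox1 (-1.86, adjusted p = 0.0315) and Bhlhe22 (-0.51, adjusted p = 0.0391) fell and Wfs1 (1.12, adjusted p = 0.0108) rose. At E16.5, 0 of them were called, although the sum covers unlike estimates. These were -1.4 (Prox1), -0.89 (Grik4), -0.83 (Zbtb20), -0.17 (Wfs1), -0.07 (Bhlhe22) and 0.39 (Neurod6) on the log2 scale. Markers of other cells also differed with genotype at P21: all 6 oligodendrocyte markers and 4 of 5 microglia markers fell in cKO, and 3 of 6 neural progenitor, 2 of 6 striatal and 2 of 4 endothelial markers rose (edgeR, adjusted p under 0.05). Single markers also passed: Foxj1 of ependyma rose, and Top2a of dividing cells and Aqp4 of astrocytes fell. In bulk tissue, fewer cells of a type and less RNA per cell cannot be told apart.

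The promoters of the members came first, since the marks described below were measured over them. For 8 of the 9 genes a RefSeq start on GRCm38.p6 was at hand, and for Smarce1 only the gene's ends were used. The starts of Smarcd2 and Smarcd3 lie inside their genes, so their windows and start peaks need not mark the main promoter. Letters are printed for 4 genes, chosen because the ATPase pair moved in opposite directions with age, Smarcd3 had the largest positive cKO estimate at both ages, and the Smarcd2 window stands apart in composition. Each line gives the 250 bases upstream of the start, read 5′ to 3′ in the direction of the gene, with every match to a searched motif in capitals. The windows lie at chr19:26604910-26605159 (plus strand, Smarca2), chr9:21615919-21616168 (plus strand, Smarca4), chr5:24602003-24602252 (minus strand, Smarcd3) and chr11:106267633-106267882 (minus strand, Smarcd2).
Smarca2: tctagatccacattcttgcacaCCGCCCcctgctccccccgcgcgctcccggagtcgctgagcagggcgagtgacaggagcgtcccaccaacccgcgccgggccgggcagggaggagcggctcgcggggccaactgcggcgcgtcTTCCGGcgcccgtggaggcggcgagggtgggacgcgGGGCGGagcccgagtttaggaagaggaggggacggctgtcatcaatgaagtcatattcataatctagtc
Smarca4: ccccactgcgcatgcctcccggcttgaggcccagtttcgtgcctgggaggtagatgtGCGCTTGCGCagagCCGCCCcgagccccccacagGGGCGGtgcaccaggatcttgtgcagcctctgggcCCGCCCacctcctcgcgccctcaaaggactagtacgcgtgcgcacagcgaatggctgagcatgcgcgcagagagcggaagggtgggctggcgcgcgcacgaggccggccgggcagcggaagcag
Smarcd3: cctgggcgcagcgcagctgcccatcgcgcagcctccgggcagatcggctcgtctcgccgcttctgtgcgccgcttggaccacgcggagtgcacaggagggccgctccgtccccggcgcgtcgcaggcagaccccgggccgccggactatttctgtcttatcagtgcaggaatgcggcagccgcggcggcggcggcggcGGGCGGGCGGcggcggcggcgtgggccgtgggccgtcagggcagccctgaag
Smarcd2: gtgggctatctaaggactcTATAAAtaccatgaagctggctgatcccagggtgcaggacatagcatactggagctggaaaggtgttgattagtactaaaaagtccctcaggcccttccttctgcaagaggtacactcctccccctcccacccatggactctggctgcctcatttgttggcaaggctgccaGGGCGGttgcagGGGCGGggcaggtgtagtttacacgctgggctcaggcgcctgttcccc

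The Smarca2 window held 28 CpG dinucleotides, the Smarca4 window 25 and the Smarcd3 window 38, against a median of 6 over all 32851 RefSeq promoter windows of the same length. The Smarcd2 window held 4. Over the 8 windows the CpG count was 21 in Smarcb1 and Smarcc1, 29 in Smarcd1 and 40 in Smarcc2, so the Smarcd2 window was the only one of the 8 below the median of all promoters. That window precedes a start inside the gene, with no WT H3K4me3 peak within 1 kb. Its composition need not describe the main promoter of Smarcd2. The GC content ran from 56.4% (Smarcd2) to 80.8% (Smarcc2), against a median of 52.4%.

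Motifs were searched on both strands, with overlapping matches counted. The GC box GGGCGG, the core of the site read by Sp1-family factors, was found in 7 of 8 windows (all but Smarcc2) and in 32.7% of all promoter windows. The ETS core CCGGAA was in 3 (Smarca2, Smarcc1 and Smarcd1) and in 12% of all windows. The NRF1 motif was in Smarca4 and in 3.74% of all windows, and the AP-1 site TGACTCA was in Smarcb1 and in 4.46%. The TATA box TATAAA was found in the Smarcd2 window, which precedes an internal start, alone of the 8, and in 12.4% of all windows. No window held CCAAT, the E-box CACGTG or the cyclic AMP response element TGACGTCA, found in 33.8%, 6.02% and 1.55% of all windows. These are matches of letters and no evidence of binding.

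H3K4me3, a mark of active promoters, was called at the start of nearly every member at 3 weeks. A peak lay within 1 kb of the start for 8 of 9 members in WT (all but Smarcd2) and for 9 of 9 in cKO, where 81.2% and 82.9% of the 15627 starts of genes tested at P21 had one. The Smarcd2 difference lies at the edge of the window. Its WT peak lay at -1391 to -1061 bp from the start (fold 4.8) and its cKO peak at -1198 to -944 bp (fold 5.22). H3K27ac, which marks active enhancers as well as promoters, was within 1 kb for 8 of 9 in WT (all but Smarcd3) and for 9 of 9 in cKO, against 46.3% and 67% of starts. The Smarcd2 and Smarcd3 starts used here are internal to their genes. H3K27me3, the Polycomb mark of repressed genes, was within 1 kb of no member in either genotype, and 2.65% and 12.8% of starts carried it. With 1 library per mark and genotype there is no test, and the lists differ in length: 13006 H3K27ac peaks in WT against 24065 in cKO, and 4124 H3K27me3 peaks against 15659.

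**Figure D1:**
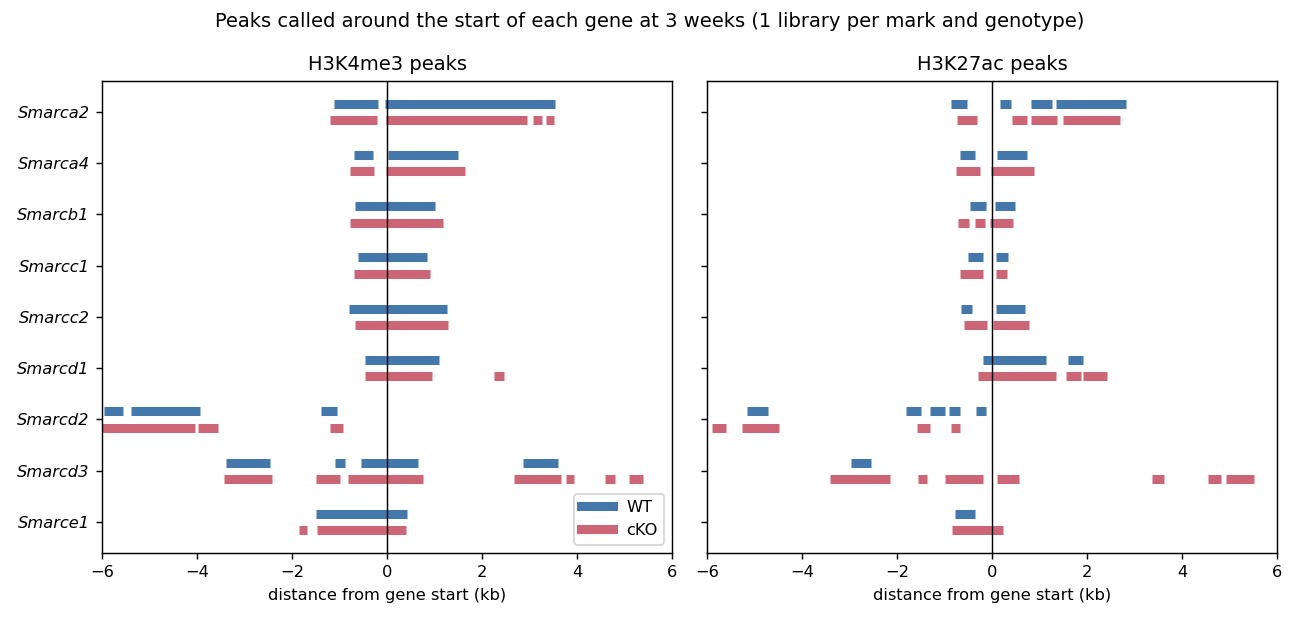
Peaks of H3K4me3 (left) and H3K27ac (right) drawn as bars by their distance in kb from the start of each gene, WT above cKO, with 1 library per mark and genotype. Positive distances run into the gene. For Smarce1, whose strand was not given, distance runs along the chromosome from the upper gene end. The WT H3K4me3 bars cross or adjoin the start of all members but Smarcd2, and Smarcd3 has H3K27ac bars over its start region in cKO alone. The starts of these 2 genes are internal to the gene.

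By fold enrichment the Smarca2 peak was the highest of the 9 within the WT H3K4me3 list, at 22.08 by the authors' deposited peak table. It spanned chr19:26605116-26608686, a length of 3571 bp that began at the start and ran into the gene. By pileup it was not the highest, at 59.0 beside 66.7 for the Smarcb1 start peak. Further H3K4me3 and H3K27ac peaks lay far inside this gene, 142294 bp past the start in WT (H3K4me3, chr19:26747454-26748484, fold 7.99) and 142261 bp past it in cKO (chr19:26747421-26748194, fold 13.78). In the cKO list this inner peak had a higher fold than the start peak, which stood at 8.18. Over the gene and 1 kb beyond its ends, 4 H3K4me3 peaks were called in WT and 10 in cKO, covering 5762 and 6845 bp. The cKO peaks at 3059 to 3250 bp and 3333 to 3509 bp past the start lay inside the span of the WT start peak. The whole H3K4me3 lists held 25145 peaks in WT and 28234 in cKO.

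At Smarca4 a WT H3K4me3 peak at chr9:21616173-21617655 began 4 bp past the start and the cKO peak at chr9:21616138-21617807 began before it, with a fold of 16.39. Within the WT list the start peaks of Smarcc1 (fold 19.7), Smarcc2 (19.75), Smarcd1 (19.67) and Smarce1 (19.45) were close to each other. They stood above those of Smarcb1 (11.29) and Smarcd3 (8.63 at its internal start). Fold values were not compared between lists, which come from separate libraries and inputs.

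Smarcd2 and Smarcd3 differed from the rest in where their marks lay relative to the start used. Both genes run on the minus strand, so the upper gene end is their 5′ end. The table's Smarcd2 start is internal to the gene, which spans chr11:106263171-106272998, and the strongest H3K4me3 peak stood at the upper gene end instead (chr11:106271584-106273028 in WT, fold 20.85, and chr11:106271686-106273638 in cKO, fold 10.24). That end adjoins Tcam1, so the peak cannot be given to Smarcd2 alone. The Smarcd3 start is internal too, since the gene spans chr5:24592622-24624456 on the minus strand. H3K4me3 covered that start (chr5:24601354-24602560, fold 8.63 in WT), and a stronger peak lay at the upper gene end (chr5:24623417-24624745, fold 12.96 in WT). The H3K27ac peaks of Smarcd3 numbered 1 in WT and 8 in cKO over the whole gene. In cKO 2 of them lay within 1 kb of the start, the stronger at chr5:24602206-24602998 with a fold of 7.61. The highest cKO H3K27ac peak of the gene stood at the upper gene end (chr5:24623868-24624412, fold 10.23). The nearest H3K27me3 peak to any member lay 64.2 kb from Smarcd3 in WT and 9.9 kb from Smarcb1 in cKO.

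The largest differences in RNA level lay between the ages. In WT hippocampus 7 of the 9 members fell from E16.5 to P21 and 1, Smarca2, rose, with Smarcd2 not passing the test. The WT libraries of the 2 ages did not overlap for these 8 genes. Of all 18979 genes tested, 60.4% were called, 32.6% lower and 27.8% higher at P21, and groups were separate for 41.5% of genes downward and 35.5% upward, so the count of members called is read against a common background of change. The median change of the members was -0.8 on the log2 scale, beside -0.12 for all genes tested. Each age is a set of libraries of its own, so age and library set cannot be told apart. Levels here are CPM scaled over all 10 libraries, and they were not compared between genes because no transcript lengths were used.

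The 2 ATPases moved apart. Smarca2 stood at 134, 168 and 157 CPM in the E16.5 WT libraries and at 227 and 220.3 CPM at P21, with no overlap. It rose by 0.55 on the log2 scale (SE 0.15, edgeR adjusted p = 0.0111), from 153 ± 17.3 (SD, n = 3) to 224 ± 4.8 CPM (SD, n = 2). That call was lost with scaling to library totals only (0.34, adjusted p = 0.0757) and without WT P21 replicate 1 (0.53, adjusted p = 0.0588), which leaves 1 WT library at P21. Smarca4, in contrast, was at 355, 369 and 392 CPM at E16.5 and at 217 and 210.2 CPM at P21, so every P21 WT library lay below every E16.5 one. It fell by 0.8 on the log2 scale (SE 0.12, edgeR adjusted p = 0.000317).

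The shared core subunits fell further. Smarce1, which encodes the HMG-box subunit BAF57, was at 189.8, 199.7 and 193 CPM in E16.5 WT libraries and at 55.5 and 58.9 CPM at P21. Its change of -1.77 (SE 0.1, edgeR adjusted p = 1.38e-06) was the largest fall of the 9 in WT. Smarcb1, the gene of the nucleosome-contacting subunit BAF47, was at 165, 175 and 188 CPM at E16.5 and at 56.5 and 53.0 CPM at P21, a change of -1.69 (SE 0.11, edgeR adjusted p = 2.30e-06). The P21 groups of both genes lay far below the E16.5 groups.

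Of the scaffold pair, Smarcc1 (BAF155) changed more than Smarcc2 (BAF170). Smarcc1 was at 151, 158 and 169.5 CPM at E16.5 and at 72.4 and 75.6 CPM at P21, and it fell by 1.11 (SE 0.11, edgeR adjusted p = 2.42e-05). Smarcc2 was at 586, 638 and 666 CPM and then at 451 and 417 CPM, and it fell by 0.54 (SE 0.13, edgeR adjusted p = 0.00679). The groups did not overlap for either gene. Without WT P21 replicate 2, the fall of Smarcc2 missed the threshold (-0.48, edgeR adjusted p = 0.059).

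The 3 SMARCD genes, which encode the interchangeable BAF60 proteins, took different courses. Smarcd3 (BAF60C) was at 143, 162 and 178 CPM at E16.5 and at 65.0 and 52.0 CPM at P21, and it fell by 1.46 (SE 0.15, edgeR adjusted p = 4.08e-05). Smarcd1 (BAF60A) was at 224, 252 and 259 CPM and then at 147 and 139 CPM, and it fell by 0.77 (SE 0.13, edgeR adjusted p = 0.000595). Smarcd2 (BAF60B) was at 34.2, 26.9 and 27.9 CPM at E16.5 and at 37.2 and 32.3 CPM at P21, and these groups overlapped (0.23, SE 0.13, edgeR adjusted p = 0.153).

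**Figure D2:**
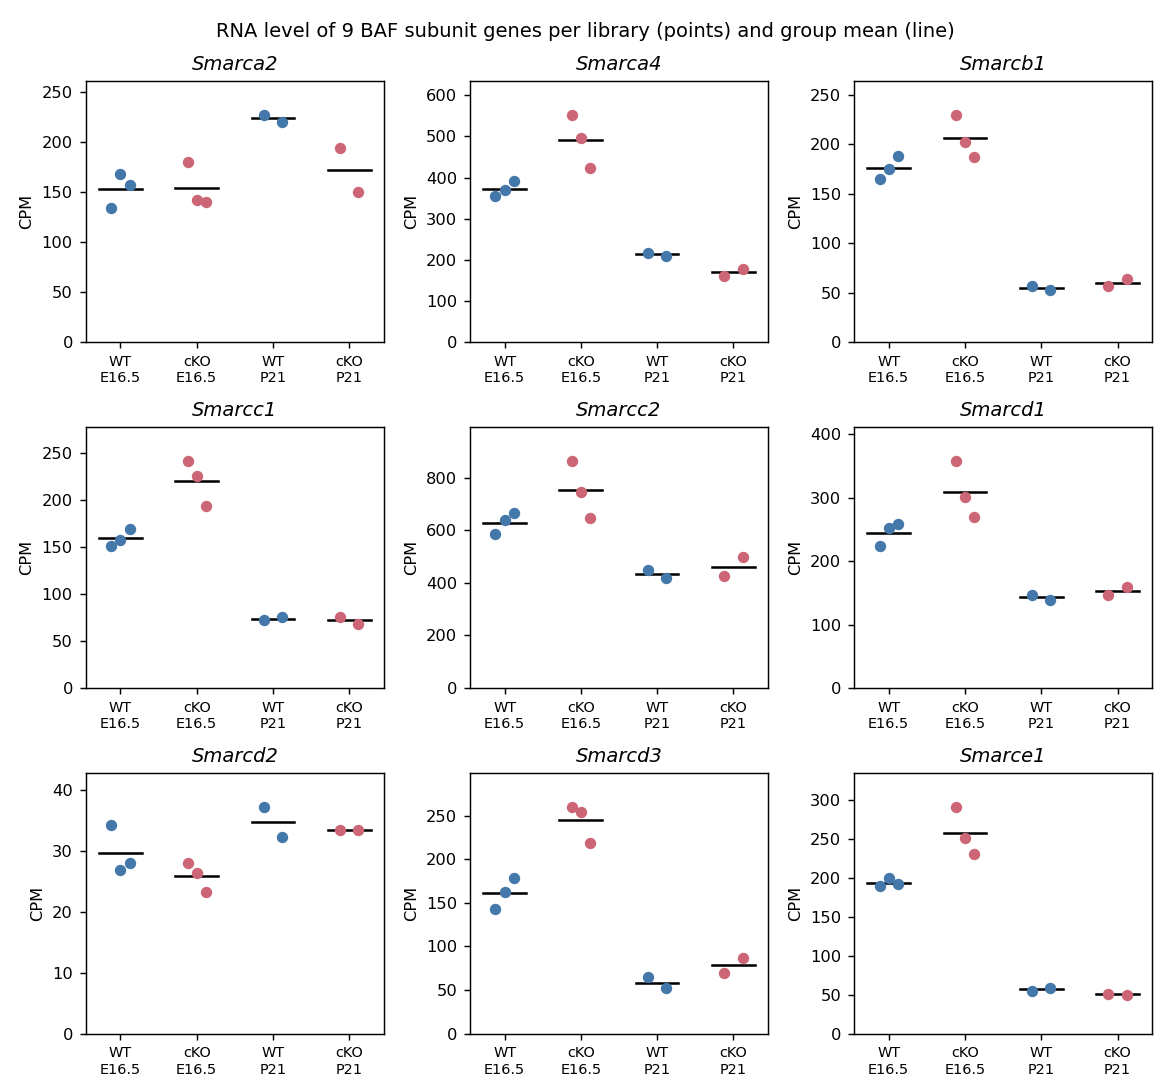
RNA level in CPM of the 9 genes in each library (points) with the group mean (line), by genotype and age, on axes that start at 0 and differ between genes. The genes other than Smarca2 and Smarcd2 sit lower at P21 than at E16.5 in both genotypes, Smarca2 is highest in WT at P21 (227 and 220.3 CPM), and Smarcd2 spans a narrow range of 23.3 to 37.2 CPM.

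In cKO hippocampus the same 7 genes fell from E16.5 to P21, with separate groups, and Smarcd2 rose. Here 65.2% of all genes were called, 33.6% lower and 31.6% higher, 39.1% were separate downward and 37.9% upward, and the members' median change was -1.54 beside -0.03 for all genes. Smarce1 was at 292, 252 and 231 CPM at E16.5 and at 51.3 and 50.4 CPM at P21 (-2.35, SE 0.11, edgeR adjusted p = 3.02e-07). Smarca4 was at 552, 497 and 423 CPM and then at 159.8 and 179 CPM (-1.54, SE 0.12, edgeR adjusted p = 5.49e-06). For both genes the cKO libraries lay above the WT libraries at E16.5 and below them at P21, a difference that did not pass its own test (edgeR adjusted p = 0.0663 for Smarca4 and 0.0772 for Smarce1).

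Smarca2 did not pass in cKO: it was at 180.2, 142 and 140.2 CPM at E16.5 and at 194 and 150.4 CPM at P21, and the groups overlapped (0.16, SE 0.15, edgeR adjusted p = 0.372). Smarcd2 rose by 0.36 (SE 0.13, edgeR adjusted p = 0.0312), a call lost with scaling to library totals (0.25, adjusted p = 0.112). It was also lost without cKO P21 replicate 1 (adjusted p = 0.107) or 2 (0.106), or without cKO E16.5 replicate 2 (0.0603) or 3 (0.0847). The order of the 4 groups by mean was cKO E16.5, WT E16.5 and then both P21 groups for the 7 falling genes. Neighbours in that order were not all separate: the E16.5 groups overlapped for Smarcb1 and Smarcc2, the P21 groups overlapped for Smarcc1 and Smarcc2, and the P21 groups of Smarcb1 and Smarcd1 met at the same rounded value.

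Cell markers moved in the same comparison. In WT, 5 of 6 general neuron markers rose and 1 fell, all 6 progenitor and all 5 dividing-cell markers fell, and all 6 oligodendrocyte markers rose. Summed progenitor markers ran from 837 to 1026 CPM in WT at E16.5 and from 93.3 to 95.8 CPM in WT at P21, and summed dividing-cell markers from 157 to 162 and from 7.22 to 7.85 CPM. Summed oligodendrocyte markers ran from 44.6 to 60.9 CPM and from 7581 to 8108 CPM. Their part in the age differences of the BAF genes was not tested.

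**Figure D3:**
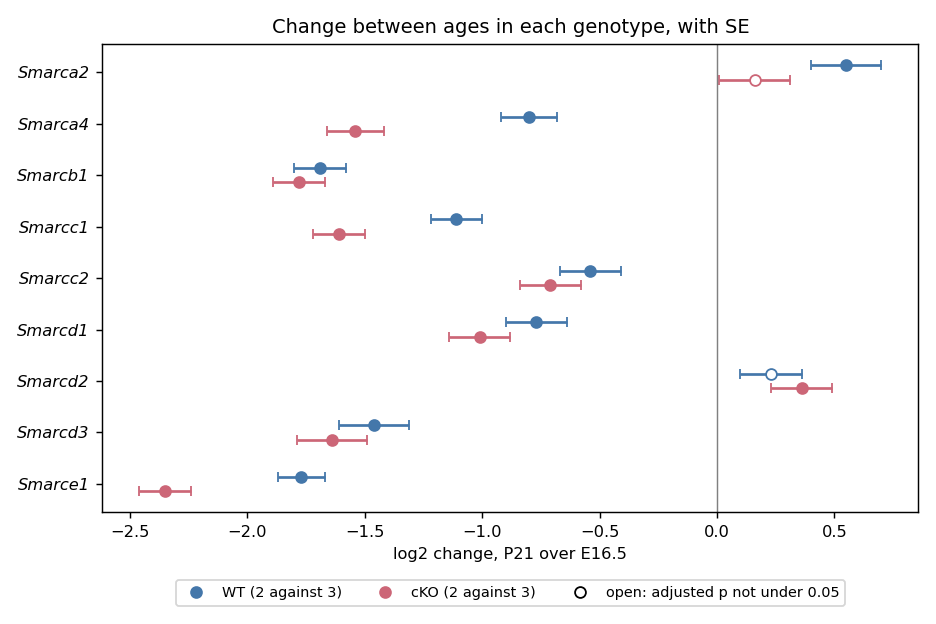
Log2 change from E16.5 to P21 of each gene in WT and in cKO hippocampus, with the approximate SE as bars (2 P21 against 3 E16.5 libraries in each). Filled points passed an adjusted p under 0.05. All genes but Smarca2 and Smarcd2 lie left of 0 in both genotypes, and Smarca2 (0.55 in WT) and Smarcd2 (0.36 in cKO) are filled on the right in 1 genotype each.

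The balance of RNA between paralogs was measured as the log2 ratio of their counts within a library. This ratio needs no scaling between libraries, and gene length cancels in it between ages. In bulk tissue it does not show an exchange of subunits within cells or complexes. The ratio of Smarca2 to Smarca4 was 0.07 in both WT libraries and 0.28 and -0.25 in the cKO libraries at P21. The WT libraries of E16.5 gave -1.41, -1.13 and -1.32, and the cKO libraries -1.61, -1.81 and -1.59. All 4 P21 libraries lay above all 6 E16.5 libraries, and the mean ratio was 1.52 higher on the log2 scale, 2.87-fold (0.04 ± 0.22, SD, n = 4, against -1.48 ± 0.24, SD, n = 6; two-sided exact permutation p = 0.00952, the smallest these groups can give).

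The other 3 ratios also separated the ages. The ratio of Smarcc2 to Smarcc1 was higher by 0.74 at P21 (2.61 ± 0.18 against 1.87 ± 0.12), and that of Smarcd2 to Smarcd1 by 1.19 (-2.12 ± 0.11 against -3.31 ± 0.35). The ratio of Smarcd3 to Smarcd1 was lower at P21, by -0.66 (-1.14 ± 0.23 against -0.47 ± 0.17). Each had a two-sided exact permutation p of 0.00952, and 0.00952 after Benjamini-Hochberg adjustment over the 4 ratios. The directions held in each genotype alone: the ATPase ratio differed by 1.35 in WT and 1.69 in cKO, where 2 against 3 libraries cannot give an exact permutation p below 0.2. How often ratios of other gene pairs separate the ages or the genotypes was not computed. Since 60.4% of all genes were called with age in WT, separation alone cannot be read as particular to these paralogs. Age and library set cannot be told apart here either.

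**Figure D4:**
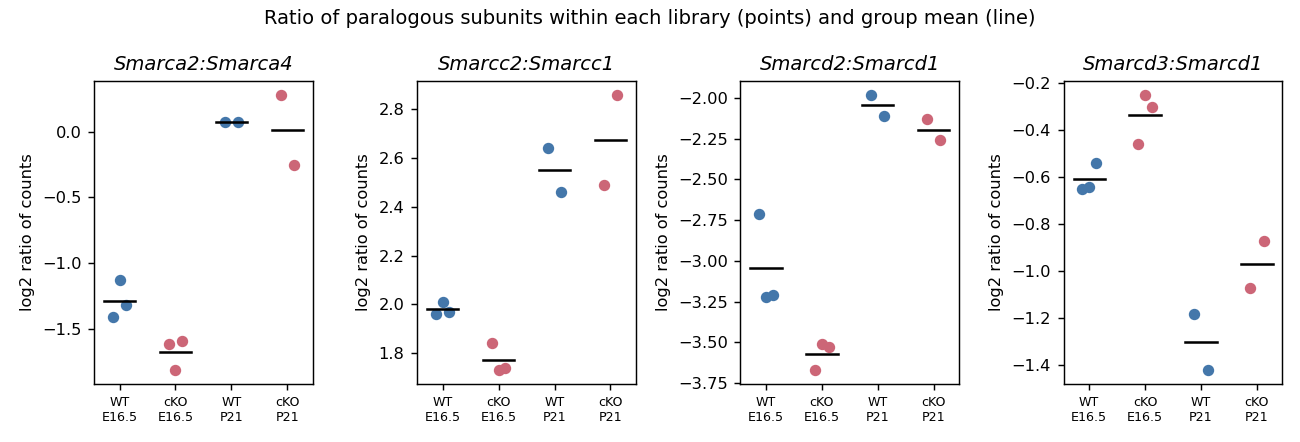
Log2 ratio of the counts of paralogous subunits within each library (points) with the group mean (line), by genotype and age, with an axis of its own for each pair. The P21 libraries lie above the E16.5 libraries for Smarca2:Smarca4, Smarcc2:Smarcc1 and Smarcd2:Smarcd1 and below them for Smarcd3:Smarcd1.

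Within E16.5 the same ratios also parted the genotypes. The cKO libraries lay below the WT libraries for Smarca2:Smarca4 (by -0.38), Smarcc2:Smarcc1 (-0.21) and Smarcd2:Smarcd1 (-0.52) and above them for Smarcd3:Smarcd1 (0.27), with no overlap in any. Each exact permutation p was 0.1, the smallest that 3 against 3 libraries can give, so none could pass 0.05. At P21 the cKO differences were -0.05, 0.12, -0.15 and 0.33 in the same order. The exact permutation p was 1 for the first and 0.667 for the second; 2 against 2 libraries cannot reach 0.05. The ATPase ratio of the cKO libraries at P21 lay on either side of the WT value.

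Loss of Arid1a at E16.5 came with higher estimates for most of the core genes, none of which passed the main test. From here, CPM are scaled within the age. Of the 9 members, 0 were called with edgeR, where 0.124% of 16958 genes tested were called, 0.0118% higher and 0.112% lower. Without adjustment, at p under 0.05, 5 members lay higher and 0 lower, beside 9.13% and 11.5% of all genes. DESeq2 called 4 higher, beside 2.43% of all genes, and limma-voom 0. The estimate was above 0 for 7 of the 9, beside 48.6% of all genes, and the median was 0.32, beside -0.01. In 5 members every cKO library lay above every WT library, which held for 14% of all genes, and in 0 members below (15.3%). The cKO libraries kept the same order of level in every member, so these counts of members are not independent observations.

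Smarcd3 had the largest estimate. It was at 150.4, 172 and 187 CPM in WT and at 271, 263 and 228 CPM in cKO, with all cKO libraries above the WT libraries. The change was 0.58 (SE 0.11, edgeR adjusted p = 0.127), and with DESeq2 0.59 (adjusted p = 7.71e-05). In the authors' deposited table it was 0.599 with an adjusted p of 0.000116.

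Smarcc1 was at 159, 168 and 178 CPM in WT and at 252, 234 and 203 CPM in cKO, again with no overlap (0.45, SE 0.1, edgeR adjusted p = 0.139, DESeq2 adjusted p = 0.00192). Smarce1 was at 200.2, 212 and 203 CPM in WT and at 305, 262 and 241 CPM in cKO (0.39, SE 0.09, edgeR adjusted p = 0.147, DESeq2 adjusted p = 0.00695). Its groups were separate as well, and reads of its pseudogene copy Smarce1-ps1 could be split with it. Smarca4 was at 375, 391 and 411 CPM in WT and at 575, 516 and 440.5 CPM in cKO, without overlap (0.38, SE 0.11, edgeR adjusted p = 0.167, DESeq2 adjusted p = 0.0186). The authors' deposited table gives adjusted p-values of 0.00268, 0.00867 and 0.0226 for these 3 genes.

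Smarcd1 was the fifth gene with separate groups, at 236, 267 and 272 CPM in WT and at 373, 312 and 281 CPM in cKO (0.32, SE 0.12, edgeR adjusted p = 0.214). Smarcb1 (0.21, SE 0.09) and Smarcc2 (0.24, SE 0.12) overlapped between genotypes. Smarca2, the other ATPase, was at 141, 178 and 164 CPM in WT and at 188, 147 and 146 CPM in cKO, a change of -0.01 with a 95% interval from -0.26 to 0.25. Smarcd2 had the lowest estimate (-0.21, SE 0.12, edgeR adjusted p = 0.352).

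Markers of other cells varied between E16.5 libraries. Summed choroid plexus and ependyma markers ran from 37.4 to 4531 CPM in WT and from 7.26 to 2367 CPM in cKO, and summed astrocyte markers from 489 to 690.3 and from 164 to 271 CPM, with 1 of 5 astrocyte markers (Aldoc) called lower in cKO. The genotypes were also separate in the sums of microglia markers (50.6 to 101 CPM in WT, 24.8 to 36.2 CPM in cKO), endothelial markers (101 to 255 and 74.6 to 81.0 CPM) and striatal markers (29.0 to 43.1 and 59.2 to 115 CPM), with no single marker of these called. Summed progenitor markers ran from 837 to 1026 CPM in WT and from 833 to 1143 CPM in cKO. These sums are on the scale of all 10 libraries, and their part in the BAF gene estimates was not tested.

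At P21 the estimates of the members went both ways and none passed. With edgeR 0 of 9 were called, where 6.72% of 17407 genes tested were called, 2.81% higher and 3.91% lower. Without adjustment, at p under 0.05, 1 member lay higher and 2 lower, beside 11.7% and 13.2% of all genes, and DESeq2 and limma-voom each called 0. In 3 members all cKO libraries lay above the WT libraries and in 3 below, beside 28.2% and 27.9% of all genes with 2 against 2 libraries. The median was -0.02, beside 0.01 for all genes.

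Both ATPases had lower estimates in cKO. Smarca4 was at 200 and 196 CPM in WT and at 152 and 167 CPM in cKO (-0.32, SE 0.1, edgeR adjusted p = 0.114). Smarca2 was at 209 and 205 CPM in WT and at 184 and 140.3 CPM in cKO (-0.35, SE 0.14, edgeR adjusted p = 0.165). The genotypes were separate in both genes, and the 2 cKO libraries of Smarca2 differed from each other more than the WT libraries did. That estimate rests on 1 library: it was -0.56 without cKO replicate 1 (edgeR adjusted p = 0.00502) and -0.18 without cKO replicate 2 (edgeR adjusted p = 0.352). Each of these fits has 1 cKO library, which is assumed to vary like the WT libraries.

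Smarcd3 had the largest positive estimate at this age too, at 59.9 and 48.5 CPM in WT and 66.0 and 81.4 CPM in cKO (0.44, SE 0.15, edgeR adjusted p = 0.116). It too moved with single libraries, to 0.59 without cKO replicate 1 (edgeR adjusted p = 0.0137), 0.28 without cKO replicate 2 (0.264), 0.6 without WT replicate 1 (0.103) and 0.29 without WT replicate 2 (0.548), each with 1 library left in that arm. Smarce1 was at 51.1 and 54.9 CPM in WT and at 48.6 and 47.0 CPM in cKO, a small separation downward (-0.15, SE 0.1). Smarcb1 (0.15, SE 0.11) and Smarcd1 (0.12, SE 0.1) were separate upward. Smarcc1 (-0.02, SE 0.11), Smarcc2 (0.11, SE 0.11) and Smarcd2 (-0.04, SE 0.12) overlapped.

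Oligodendrocyte marker sums ran from 7581 to 8108 CPM in WT and from 4414 to 4712 CPM in cKO at P21, microglia sums from 189.9 to 207 and from 111 to 115 CPM, and striatal sums from 81.2 to 85.5 and from 149 to 220.1 CPM. Their part in the estimates of the ATPases and Smarcd3 was not tested. In the authors' deposited table no member had an adjusted p under 0.05 at P21, and the lowest was that of Smarca4 (0.0676).

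**Figure D5:**
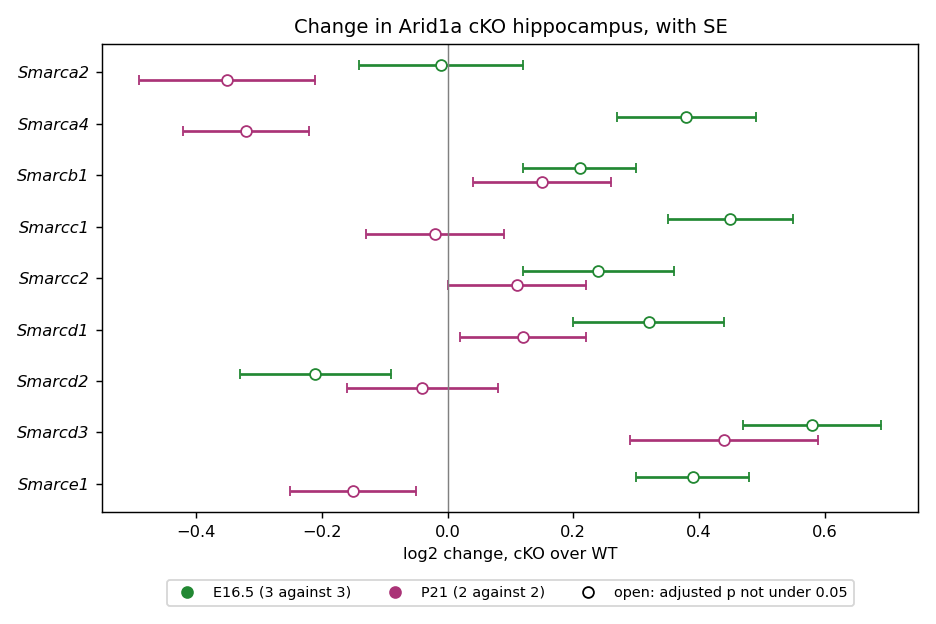
Log2 change of each gene in cKO over WT hippocampus at E16.5 (3 against 3 libraries) and P21 (2 against 2), with the approximate SE as bars. All points are open, since none passed an adjusted p under 0.05 with edgeR. Smarca4 lies at 0.38 at E16.5 and at -0.32 at P21.

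The difference between the ages was tested directly as the cKO effect at P21 minus that at E16.5. With edgeR 0 of 9 members were called, where 1.16% of 18979 genes were called, 0.427% higher and 0.738% lower. Without adjustment, at p under 0.05, 3 members lay lower and 0 higher, beside 10.5% and 9.57% of all genes. DESeq2 called the same 3 lower, beside 4.28% of all genes, and limma-voom 0. They were Smarca4 (-0.73, SE 0.16, edgeR adjusted p = 0.0663), Smarce1 (-0.58, SE 0.14, edgeR adjusted p = 0.0772) and Smarcc1 (-0.5, SE 0.15, edgeR adjusted p = 0.117). Without cKO E16.5 replicate 3 these 3 passed with edgeR (adjusted p = 0.0283, 0.0386 and 0.0467). Smarcd3, positive at both ages, differed by -0.18 (95% interval -0.58 to 0.22). The difference uses the same libraries as the 2 genotype comparisons and is no independent evidence.

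The other BAF subunits, a list of 22 genes, give the setting. At P21, 4 fell and 0 rose in cKO with edgeR. Beside Arid1a (-1.08, adjusted p = 0.00507) these were Dpf3 (-1.43, SE 0.25, adjusted p = 0.0197), a PHD-finger subunit, Bcl11b (-0.76, SE 0.13, adjusted p = 0.0162), a zinc-finger subunit, and Actl6b (-0.45, SE 0.1, adjusted p = 0.0421), the neuron-specific actin-like subunit. At E16.5 Arid1a alone fell (-0.64, adjusted p = 0.032), and 0 rose. The list's medians were -0.05 at P21 and 0.13 at E16.5, beside -0.02 and 0.32 for the 9 core genes.

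With age the other subunits also fell for the most part. In WT 13 of 22 fell and 5 rose with edgeR (median -0.71). Lowest by adjusted p were Bcl7c (-2.53, adjusted p = 1.69e-07), Actl6a (-1.6, adjusted p = 6.12e-06), the actin-like subunit of progenitors, and Pbrm1 (-1.23, adjusted p = 7.13e-06) of the PBAF form. Among those that rose were Bicral (1.11, adjusted p = 0.000128), Arid1b (0.58, adjusted p = 0.00172), the paralog of Arid1a, and Dpf3 (1.42, adjusted p = 0.00261). In cKO 16 fell and 3 rose (median -1.05), with Bcl7c (-2.54), Actl6a (-1.96) and Actl6b (-1.64) lowest by adjusted p and Bicral (0.88), Phf10 (0.35) and Dpf3 (1.23) the 3 that rose.

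The ATPases of other chromatin remodellers, 21 genes, had 7 lower and 5 higher with age in WT (median -0.07) and 10 lower and 3 higher in cKO (median -0.19). In WT the lowest adjusted p-values with edgeR were those of Hells (-1.94, adjusted p = 2.14e-05), Smarcad1 (-1.07) and Chd7 (-1.48) downward and of Srcap (1.01), Chd9 (2.34) and Chd5 (0.77) upward. In cKO they were those of Hells (-2.58), Smarcad1 (-1.35) and Ep400 (-0.79) downward, and Chd5 (0.76), Srcap (0.54) and Chd9 (0.65) were the 3 that rose. In cKO against WT, Chd2 rose (0.41, adjusted p = 0.0493) and Btaf1 fell (-0.76, adjusted p = 0.0333) at P21, and 0 of 21 were called at E16.5 with edgeR.

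Among the 12316 genes with a mean of at least 5 CPM, the genes whose levels followed Smarca4 most closely across the 10 libraries, after the mean of each age was taken out, were Scrt2 (Pearson r 0.993), Sf1 (0.985) and Umps (0.984). Of the members, Smarce1 (0.92) and Smarcc1 (0.82) were nearest to Smarca4, and Smarca2 stood at 0.47. For Smarca2 the nearest genes were Soga1 (0.952), Mical3 (0.95) and Agbl5 (0.94), and Smarce1 stood at 0.43. These values are descriptions over 10 libraries that share depth and scaling.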

How the data were processed

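The authors deposited estimated counts per gene in 1 table for each age, made with Salmon 1.0.0 on GRCm38 per the submitters' processing notes. How transcripts were summed and whether strand was used are not given in the sources used here, so genes overlapped by others (Smarcd3 by Chpf2, Smarcd1 by Gm34939, Smarca2 by Gm20616) may share reads. The authors also deposited log2 fold changes and p-values, with a mean-level score, and the submitters' processing notes name DESeq2 1.26.0 for them. Peak lists were aligned with Bowtie2 2.3.5.1 and called with MACS2 2.2.5 per the submitters' processing notes, although MACS 2.2.7.1 and a q-value limit of 0.01 are named in the headers of the deposited lists. For every peak the authors deposited a pileup signal, a fold enrichment ratio over input, and −log10 of its p-value and q-value.

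Estimated counts were rounded and tested with edgeR 4.0.16 in R 4.3.3 (filterByExpr, TMM, robust quasi-likelihood F test, Benjamini-Hochberg adjustment over all genes tested, threshold 0.05), each age alone. The difference between ages and the age contrasts came from 1 fit of the 10 libraries. SEs are approximate, from the F statistic, and 95% intervals are 1.96 SE. Alternatives were DESeq2 1.42.0, limma-voom (limma 3.58.1), other scalings, no low-count filter, a replicate block and leaving out each library. Ratios used counts plus 0.5 and two-sided exact permutation tests (scipy 1.17.1). The steps were tested on simulated data. The small number of libraries limits the precision. Every member is named. Of other lists, genes past the threshold are named where 5 or fewer passed, otherwise the 3 of lowest adjusted p in each direction. Members and lists were chosen with earlier results of these data known. Gene positions, starts and promoter letters are from RefSeq, GRCm38.p6.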

Additional observations from a re-analysis of the deposited data

How the results depend on the processing

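With 2 or 3 libraries per group, the number of libraries limits what could be detected. Of the recomputed settings, 137 counts of members called stayed within 1.5 times and 17 moved. Without the low-count filter, 1 member was called higher at P21 (Smarcd3), 1 higher at E16.5 (Smarcd3) and 1 lower for the difference between ages (Smarca4). DESeq2 called 4 higher at E16.5 and 3 lower for the difference. In the age comparison of WT, members called higher numbered 2 with RLE scaling (Smarca2 and Smarcd2) and 0 with library totals, and in cKO 0 with library totals. Leaving out 1 library, which at P21 leaves an arm of 1 assumed to vary like the other groups, gave 0 to 1 higher and 0 to 1 lower at P21, 0 to 3 lower for the difference, 0 to 2 higher with age in WT and 0 to 1 higher with age in cKO. The cause of these moves was not tested.

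Estimates near 0 turned sign with no call. At P21 Smarcc1 was 0.03 with upper-quartile scaling and 0.01 with library totals, and -0.1 to 0.06 (0.02 among them) without 1 library. Smarcd2 was 0.01 with upper-quartile scaling and -0.13 to 0.06 without 1 library, and Smarcc2 -0.0 to 0.21. At E16.5 Smarca2 was 0.0 with RLE scaling, 0.0 with DESeq2, 0.01 without the filter and 0.01 in the fit of all 10 libraries, and -0.11 to 0.07 without 1 library. With age in cKO Smarca2 was -0.04 to 0.34. At P21 the log2 ratio Smarca2:Smarca4 differed by -0.31 to 0.21 and Smarcc2:Smarcc1 by -0.06 to 0.31 without 1 library. The age differences of all 4 ratios kept their sign without any 1 library.

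Same-numbered WT and cKO libraries did not deviate together (correlations -0.01 and -0.01 at P21, and -0.25, -0.06 and -0.53 at E16.5), so the numbers gave no sign of pairing. Differently numbered libraries at E16.5 gave -0.15 to 0.38. With 2 libraries per group the P21 deviations mirror each other, and these few values cannot exclude pairing. With the replicate number as a block, 0 members were called at P21, at E16.5 or for the difference. Over all genes the block moved the calls from 489 higher and 680 lower to 361 and 501 at P21, and from 2 and 19 to 0 and 0 at E16.5 (719 and 1231 at an unadjusted p under 0.05), and from 81 and 140 to 0 and 1 for the difference. DESeq2 called 412 higher and 731 lower of all genes at E16.5, and 427 and 812 for the difference. Upper-quartile scaling gave 570 higher and 519 lower at P21 and 97 and 97 for the difference, and library totals gave 91 and 90 for the difference. No low-count filter gave 921 and 1228 at P21, 24 and 105 at E16.5 and 123 and 235 for the difference. The fit of all 10 libraries gave 155 and 350 at P21 and 32 and 146 at E16.5, limma-voom 277 and 450 at P21, 4 and 21 at E16.5 and 62 and 86 for the difference, and library totals 1 and 10 at E16.5. Leaving out 1 library gave 138 to 1244 higher and 293 to 1627 lower at P21, 0 to 4 and 0 to 13 at E16.5, and 2 to 273 and 3 to 339 for the difference.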
